A study of Mus musculus with 8 samples.

Results

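Aldehyde dehydrogenases oxidize aldehydes to carboxylic acids, and 10 genes of this superfamily were followed by symbol in RNA-seq counts of mouse distal colon: Aldh2, Aldh1b1, Aldh1a1, Aldh1a2, Aldh3a2, Aldh4a1, Aldh6a1, Aldh7a1, Aldh9a1 and Aldh18a1. All 10 were among the 15859 genes with deposited counts, and all 10 passed the filter on low counts that left 14371 genes for testing. Aldh2 and Aldh1b1 were put on the list because the study names them, Aldh2 from these same libraries at day 15, so the values of Aldh2 here are no independent evidence for that pattern.

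The colons came from 8 male mice of a mixed BALB/c and 129SvEV background, 10 weeks old by their labels, with 2 mice in each of 4 groups. Hsf1 null mice lack heat shock factor 1, a transcription factor of the stress response, in the whole body, and WT mice carry the gene. Mice at day 0 were untreated, and mice at day 15 had received the carcinogen azoxymethane (AOM) at 10 mg/kg and then drinking water with 1.5% dextran sulfate sodium (DSS), an irritant that injures the epithelium of the colon, for 5 days. The sample titles give day 15, while the labels' protocol has the mice killed when the DSS ended, and the titles are followed here. Each library is 1 mouse, and the comparisons asked how these transcripts differed between genotypes at each day and between days in each genotype.

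Total counts were between 2553348 and 12440257 per library, lowest in mouse 2 of WT day 0 and mouse 2 of Hsf1 null day 0. Levels are CPM, the counts scaled to library sizes that were adjusted by the TMM method. The targeted gene, Hsf1, was at 36.5 to 50.4 CPM in the 4 WT mice and at 9.09 to 13.9 CPM in the 4 Hsf1 null mice, with no overlap. All 12 epithelial markers, Epcam, Cdh1 and Vil1 among them, were detected in every library. A gene is said to have risen, fallen or differed only where edgeR's quasi-likelihood test gave a Benjamini-Hochberg adjusted p under 0.05 over all tested genes with an absolute log2 fold change above 1.

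As background, most of these enzymes use NAD+ or NADP+ to remove reactive aldehydes that arise from ethanol, lipids, amino acids, polyamines and retinol. Those of the ALDH1A group turn retinal into retinoic acid, the vitamin A derivative that shapes immune and epithelial cells of the gut. ALDH2 and ALDH1B1 are mitochondrial enzymes that clear acetaldehyde, and the colon epithelium meets acetaldehyde made by microbes. ALDH18A1 stands apart, since it works in the reductive direction and makes the precursor of proline from glutamate.

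Promoter sequence is shown for 3 genes whose levels moved in different ways below: Aldh6a1, Aldh1a1 and Aldh1b1. Each is the 250 bases before a RefSeq start on GRCm38.p6, written 5′ to 3′ on the strand of the gene, with CCAAT (or ATTGG on the other strand) in capitals. Aldh6a1 (chr12:84451025-84451274, minus strand) held 4 such matches, 239, 104, 46 and 19 bases before the start. Aldh1a1 (chr19:20601718-20601967, plus strand, the second of its listed starts) held 1, at 72 bases, and Aldh1b1 (chr4:45798772-45799021, plus strand) held none in this stretch. The 250 bases before the first listed start of Aldh1a1 held none, and those before the other start of Aldh6a1 held 1, at 109 bases. A link between these matches and the levels was not tested.
Aldh6a1: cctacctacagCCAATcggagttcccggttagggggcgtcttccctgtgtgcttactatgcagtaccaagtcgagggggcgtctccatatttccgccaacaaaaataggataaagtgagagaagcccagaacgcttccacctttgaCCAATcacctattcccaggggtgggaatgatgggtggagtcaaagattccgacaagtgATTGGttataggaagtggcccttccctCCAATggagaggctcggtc
Aldh1a1: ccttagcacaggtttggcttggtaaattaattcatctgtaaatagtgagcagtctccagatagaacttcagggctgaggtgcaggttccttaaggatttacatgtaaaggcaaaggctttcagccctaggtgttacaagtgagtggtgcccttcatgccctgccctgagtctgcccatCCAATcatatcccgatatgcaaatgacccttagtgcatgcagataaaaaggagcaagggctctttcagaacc
Aldh1b1: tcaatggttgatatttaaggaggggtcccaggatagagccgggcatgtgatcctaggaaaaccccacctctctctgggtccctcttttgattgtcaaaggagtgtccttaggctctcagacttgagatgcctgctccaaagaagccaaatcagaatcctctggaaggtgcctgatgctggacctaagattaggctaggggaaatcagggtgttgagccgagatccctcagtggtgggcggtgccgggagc

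RefSeq windows of 300 bases (250 before to 50 after a start) were matched by symbol for 8 of the 10 genes, in 10 windows, and not for Aldh2 and Aldh7a1. CCAAT, searched on both strands, was in 8 of these 10 windows, from 7 genes with Aldh1b1 among them, and in 37.4% of all 32851 mouse windows. The heat shock element of 3 GAA units in alternating orientation with 2 bases between them, the form of site that HSF1 binds, was in 0 of the 10 windows and in 0.603% of all windows. Its shorter form of 2 units, GAANNTTC, which overlaps it and reads the same on both strands, was in 0 of the 10 and in 7.86% of all. AGGTCA, the retinoic acid response half-site, was in 1 window (Aldh6a1, another start) against 16.3%, and TATAAA was in 0 against 13.6%. These are matches of letters in short windows and show no binding.

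To compare transcripts with each other, CPM was divided by the length of a gene's exons in kilobases. On this per-length scale Aldh2 was the most abundant of the 10 in every group and Aldh1b1 the next, and the ranges of these 2 genes did not overlap in any group. Aldh2 averaged 84.4 ± 24.8 CPM per kb in WT and 64.9 ± 5.96 in Hsf1 null mice at day 0, then 30.9 ± 5.54 in WT and 65.8 ± 25.4 in Hsf1 null mice after treatment (SD, n = 2). Aldh3a2, the fatty aldehyde dehydrogenase, was next by mean in every group. At day 15 its range overlapped that of Aldh1b1 in WT mice and that of Aldh18a1 in both genotypes. Aldh1a2 was lowest in 3 groups, at 0.56 to 1.20 CPM per kb on average, and was higher than Aldh6a1 and Aldh4a1 by mean, with overlapping ranges at each step, in WT mice at day 15.

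Aldh2 and Aldh1b1 together made up 45.0 to 78.8% of the summed per-length level of the 10 genes. Their share was 53.4% and 45.0% in the WT mice at day 15 and 78.8% and 65.5% in the Hsf1 null mice at day 15. The sum itself was 105 and 88.9 CPM per kb in the WT mice at day 15, below every other mouse, which had 133 to 225.

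**Figure D1:**
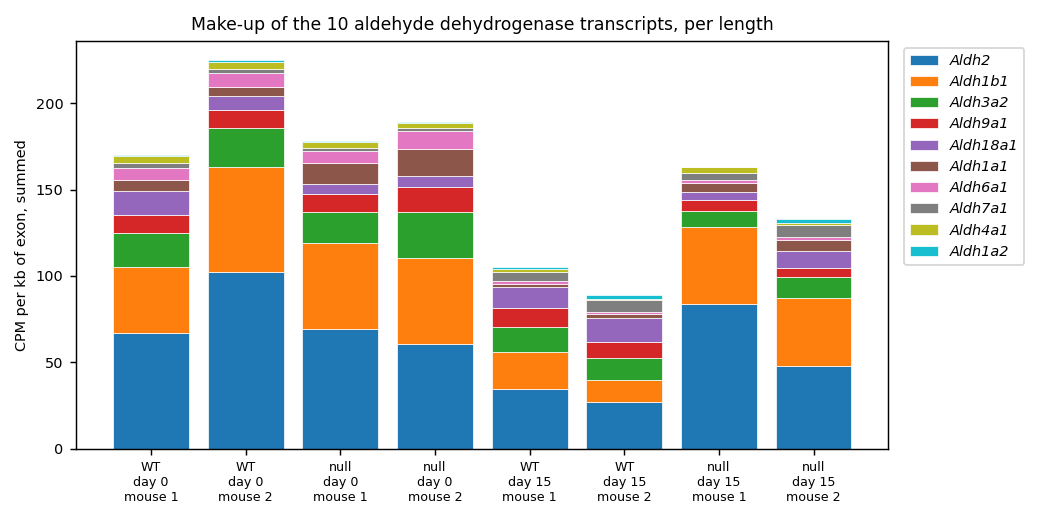
Level per length of the 10 aldehyde dehydrogenase transcripts in each of the 8 mice, as stacked bars of CPM per kb of exon. Both WT mice at day 15 have the shortest bars, at 105 and 88.9 CPM per kb, and Aldh2 is the largest block in every mouse.

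Aldh2 (ENSMUSG00000029455, GRCm38 chromosome 5, 121566027 to 121593824), the main mitochondrial acetaldehyde-oxidizing gene, had 343 and 523 CPM in WT mice at day 0 and at 178 and 138 CPM in the WT mice at day 15. In the Hsf1 null mice it was at 354 and 311 CPM at day 0 and at 429 and 245 CPM at day 15. The WT mice at day 15 were lower than all 6 other mice. Aldh2 fell in WT mice from day 0 to day 15 (log2 fold change −1.45, standard error, SE, 0.34, adjusted p = 0.0314 by edgeR), while its change in Hsf1 null mice was 0.02 (SE 0.33, adjusted p = 0.975 by edgeR). Between the genotypes at day 15 the log2 fold change was −1.09, WT relative to null, with an adjusted p of 0.0942 by edgeR, which misses the threshold. With DESeq2 that value was −1.10 (adjusted p = 0.0245). It was −0.64 by edgeR without mouse 1 of null day 15, and passed the threshold without mouse 2 of that group (−1.44, adjusted p = 0.0396).

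Aldh1b1 (ENSMUSG00000035561, chromosome 4, 45799022 to 45804604), its mitochondrial relative, was at 88.1 and 140 CPM in WT mice at day 0 and at 49.1 and 30.1 CPM at day 15. The Hsf1 null mice had 115 and 115 CPM at day 0 and 103 and 90.0 CPM at day 15. Again both WT mice at day 15 were below the other 6 mice. Aldh1b1 fell in WT mice (log2 fold change −1.52, SE 0.31, adjusted p = 0.0216 by edgeR), and its change in Hsf1 null mice was −0.25 (adjusted p = 0.603). Between the genotypes at day 15 its log2 fold change was −1.28, with an adjusted p of 0.0537 by edgeR and 0.00636 by DESeq2. With a library left out it ranged from −1.68, without mouse 1 of WT day 15, to −0.97, without mouse 2 of that group. By edgeR it passed the threshold with no filter on low counts (−1.28, adjusted p = 0.0484). It also passed with libraries thinned to the smallest (−1.37, adjusted p = 0.0417). It missed the threshold with the size factors of DESeq2, with another filter on low counts and with only the 4 mice of day 15 in the fit.

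The fall of Aldh2 and Aldh1b1 in WT mice depended on single libraries. Without mouse 2 of WT day 0 the log2 fold changes were −1.10 and −1.14, and without mouse 2 of WT day 15 they were −1.28 and −1.21, none past the threshold. Aldh2 also missed it without mouse 1 of WT day 15 (−1.65, adjusted p = 0.0636) and without either Hsf1 null mouse of day 0, which gives adjusted p of 0.0518 and 0.0523 by edgeR. Aldh1b1 missed it with only the 4 WT mice in the fit (adjusted p = 0.0565).

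The interaction, which is the WT change minus the Hsf1 null change, was −1.47 for Aldh2 (SE 0.47, unadjusted p = 0.0104, adjusted p = 0.447) and −1.27 for Aldh1b1 (unadjusted p = 0.0141, adjusted p = 0.456) by edgeR. For Aldh9a1 it was 1.09 (unadjusted p = 0.0208, adjusted p = 0.502). Thus 3 of the 10 genes had an unadjusted p under 0.05 for the interaction, as did 8.62% of all genes, and 0 of the 10 passed the threshold, as did 0.00696% of all genes. DESeq2 also gave 0 of the 10. A difference between genotypes in the change over time was therefore not shown for any of the 10.

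**Figure D2:**
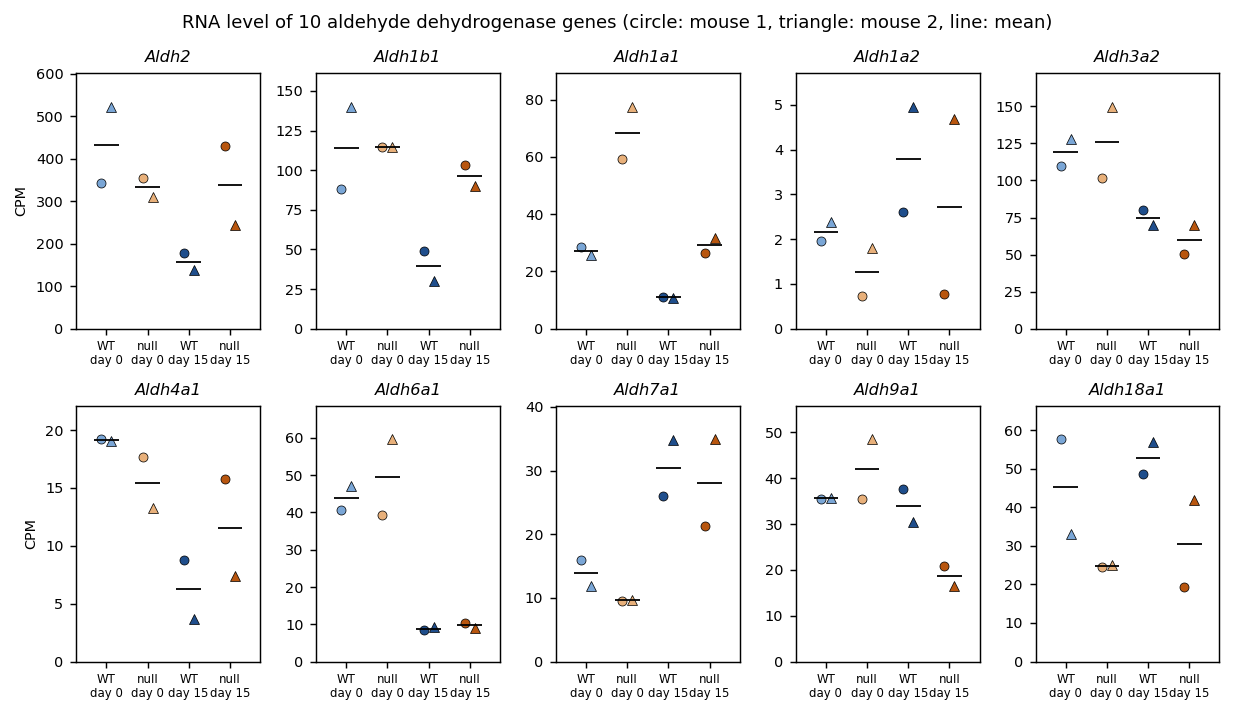
RNA level in CPM of each of the 10 genes in the 8 mice, with 2 mice (circle and triangle) and their mean (line) for each genotype and day. Each panel has its own axis from 0. In the Aldh2 and Aldh1b1 panels both WT mice at day 15 lie below the other 6 mice, and in the Aldh6a1 panel all 4 mice at day 15 lie below all 4 at day 0.

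Among the retinal-oxidizing genes, Aldh1a1 (ENSMUSG00000053279, chromosome 19, 20492715 to 20643465) differed between the genotypes at day 15. The WT mice had 11.04 and 10.87 CPM, while Hsf1 null mice had 26.5 and 31.7 CPM, a log2 fold change of −1.41 (SE 0.27, adjusted p = 0.0301 by edgeR). The untreated WT mice had 28.7 and 25.8 CPM and the untreated Hsf1 null mice 59.4 and 77.6 CPM. The WT mice were thus below the Hsf1 null mice at both days without overlap, but at day 0 the log2 fold change of −1.32 (unadjusted p = 0.000601) had an adjusted p of 0.775 by edgeR. The interaction for Aldh1a1 was −0.09 (adjusted p = 0.96 by edgeR), so a difference particular to day 15 was not shown.

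From day 0 to day 15 Aldh1a1 fell in both genotypes, with log2 fold changes of −1.32 in WT mice (adjusted p = 0.0227) and −1.23 in Hsf1 null mice (adjusted p = 0.022) by edgeR. The difference at day 15 did not hold in every fit. It was lost without either mouse of WT day 15, without mouse 1 of null day 15, and without either mouse of null day 0, with log2 fold changes from −1.54 to −1.40. It was also lost with only the 4 mice of day 15 in the fit (adjusted p = 0.0982) and with libraries thinned to the smallest (−1.21, adjusted p = 0.0631). The fall in WT mice was lost without any 1 of the 4 WT mice, at −1.37 to −1.23, and the fall in Hsf1 null mice without mouse 2 of null day 0 (−1.03) or without either null mouse of day 15 (−1.10 and −1.36).

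Aldh1a2 (chromosome 9, 71215789 to 71296243), the other retinal dehydrogenase of the list, rested on 5 to 47 counts per library. At day 0 the WT mice had 1.96 and 2.38 CPM and the Hsf1 null mice 0.74 and 1.80 CPM. At day 15 the WT mice had 2.61 and 4.96 CPM and the Hsf1 null mice 0.78 and 4.68 CPM. The day 15 groups overlapped, and no difference in Aldh1a2 was detectable at this depth.

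Of the 2 genes of proline metabolism, Aldh18a1 (chromosome 19, 40550257 to 40588463), which makes pyrroline-5-carboxylate from glutamate, was higher in both WT mice than in both Hsf1 null mice at each day without passing the threshold. It was at 57.6 and 32.9 against 24.5 and 25.1 CPM at day 0 (log2 fold change 0.89, SE 0.39) and at 48.5 and 57.0 against 19.2 and 41.8 CPM at day 15 (0.79, SE 0.38). The adjusted p was 0.783 and 0.249 by edgeR. With a library left out, the log2 fold change ranged from 0.41 to 1.20 at day 0 and from 0.33, without mouse 1 of null day 15, to 1.46, without mouse 2 of that group, at day 15. Aldh4a1 (chromosome 4, 139622866 to 139649690), which breaks the same intermediate down to glutamate in mitochondria, was at 19.2 and 19.1 CPM in WT mice at day 0 and at 8.78 and 3.69 CPM at day 15. Its log2 fold change in WT mice was −1.61 (SE 0.50), with an adjusted p of 0.0743 by edgeR and 0.0253 by DESeq2. It was −2.37 without mouse 1 and −1.12 without mouse 2 of WT day 15. The Hsf1 null mice had 17.65 and 13.29 CPM of Aldh4a1 at day 0 and 15.81 and 7.35 CPM at day 15. Their log2 fold change was −0.44 (adjusted p = 0.572 by edgeR). Between the genotypes at day 15 it was −0.88 (adjusted p = 0.313 by edgeR). Of the 4995 stretches of 50 bases in Aldh4a1 transcripts, 1500 are also in Gm21969, an overlapping gene on the same strand, so its counts are uncertain.

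Aldh6a1 (ENSMUSG00000021238, chromosome 12, 84430717 to 84451004), the methylmalonate semialdehyde dehydrogenase of valine breakdown, fell most among the 10 in both genotypes. WT mice had 40.7 and 47.2 CPM at day 0 and 8.52 and 9.18 CPM at day 15, a log2 fold change of −2.31 (SE 0.31, adjusted p = 0.00597 by edgeR). Hsf1 null mice had 39.4 and 59.6 CPM at day 0 and 10.4 and 8.96 CPM at day 15, a log2 fold change of −2.34 (SE 0.31, adjusted p = 0.0123). All 4 mice at day 15 were below all 4 at day 0. The call in WT mice was kept without each library in turn, and that in Hsf1 null mice was lost without mouse 2 of null day 0 (−2.03, adjusted p = 0.125), where 0 genes in all were called. Of its 50-base stretches 16.1% are also in Bbof1, which overlaps it on the opposite strand, and the strand setting of the counting is not given in the sources used here.

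Aldh7a1 (ENSMUSG00000053644, chromosome 18, 56509687 to 56572951), which acts in lysine breakdown, rose in Hsf1 null mice, from 9.52 and 9.70 CPM to 21.2 and 34.9 CPM (log2 fold change 1.55, SE 0.36, adjusted p = 0.026 by edgeR). In WT mice it was at 15.96 and 11.90 CPM at day 0 and at 26.0 and 34.8 CPM at day 15, a log2 fold change of 1.10 with an adjusted p of 0.0761 by edgeR and 0.0499 by DESeq2 (1.12). By edgeR it was the only one of the 10 that rose in either genotype. Of its 50-base stretches 6.35% are also in other genes, 3.9% in Phax, which overlaps it on the opposite strand, so its counts are uncertain in that part.

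Aldh9a1 (ENSMUSG00000026687, chromosome 1, 167349991 to 167368532), which oxidizes trimethylaminobutyraldehyde on the way to carnitine, fell in Hsf1 null mice, from 35.5 and 48.5 CPM to 20.9 and 16.6 CPM (log2 fold change −1.15, SE 0.28, adjusted p = 0.0313 by edgeR). In WT mice it was at 35.6 and 35.7 CPM at day 0 and at 37.6 and 30.5 CPM at day 15 (−0.07, adjusted p = 0.9). Both WT mice were above both Hsf1 null mice at day 15 (log2 fold change 0.86, adjusted p = 0.111). Aldh3a2 (ENSMUSG00000010025, chromosome 11, 61223417 to 61267464) fell in Hsf1 null mice, from 101 and 150 CPM to 50.2 and 70.0 CPM (−1.06, SE 0.27, adjusted p = 0.0365), and was at 110 and 128 then 80.0 and 70.0 CPM in WT mice (−0.66, adjusted p = 0.149).

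The calls of Aldh3a2, Aldh7a1 and Aldh9a1 in Hsf1 null mice were lost without mouse 2 of null day 0 or without mouse 2 of null day 15. Without mouse 2 of null day 0 the log2 fold changes were −0.75, 1.56 and −0.92 in that order, and without mouse 2 of null day 15 they were −1.31, 1.14 and −0.99. Aldh3a2 and Aldh9a1 were lost also without mouse 1 of null day 15 (−0.83 and −1.32) and without mouse 2 of WT day 0 (−1.05 and −1.14). Aldh3a2 was lost without mouse 1 of WT day 0 as well (−1.06), and Aldh7a1 without mouse 1 of null day 0 (1.53). Aldh3a2 and Aldh9a1 also missed the threshold with only the 4 Hsf1 null mice in the fit (adjusted p = 0.0593 and 0.0543 by edgeR), as did Aldh9a1 with thinned libraries (−0.97).

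Counted over the list, 0 of the 10 genes were higher and 1 was lower in WT than in Hsf1 null mice at day 15, against 1.25% and 1.91% of all genes. The groups did not overlap for 5 of the 10, Aldh2, Aldh1b1, Aldh1a1, Aldh9a1 and Aldh18a1, and for 54.8% of all genes. At day 0, 0 of the 10 passed the threshold by edgeR, as did 0.0% of all genes, and also 0 by DESeq2. Hsf1, the targeted gene, missed it there as well (log2 fold change 1.57, adjusted p = 0.775 by edgeR). A miss at day 0 therefore does not show that the genotypes were alike. An unadjusted p under 0.05 was found for 2 of the 10 (Aldh1a1 and Aldh18a1) and for 6.29% of all genes, and groups without overlap for 5 of the 10 and for 37.1% of all genes.

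Between the days, 4 of the 10 fell and 0 rose in WT mice, against 4.27% and 3.47% of all genes, and 4 fell and 1 rose in Hsf1 null mice, against 6.48% and 5.3%. Groups did not overlap for 8 of the 10 in WT mice (62.5% of all genes) and for 6 of the 10 in Hsf1 null mice (61.3%). The median log2 fold change of the 10 was −0.99 in WT mice, where that of all genes was 0.00, and −0.34 in Hsf1 null mice, where that of all genes was 0.05. At day 15 the median between genotypes was −0.01 for the 10 and 0.04 for all genes.

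**Figure D3:**
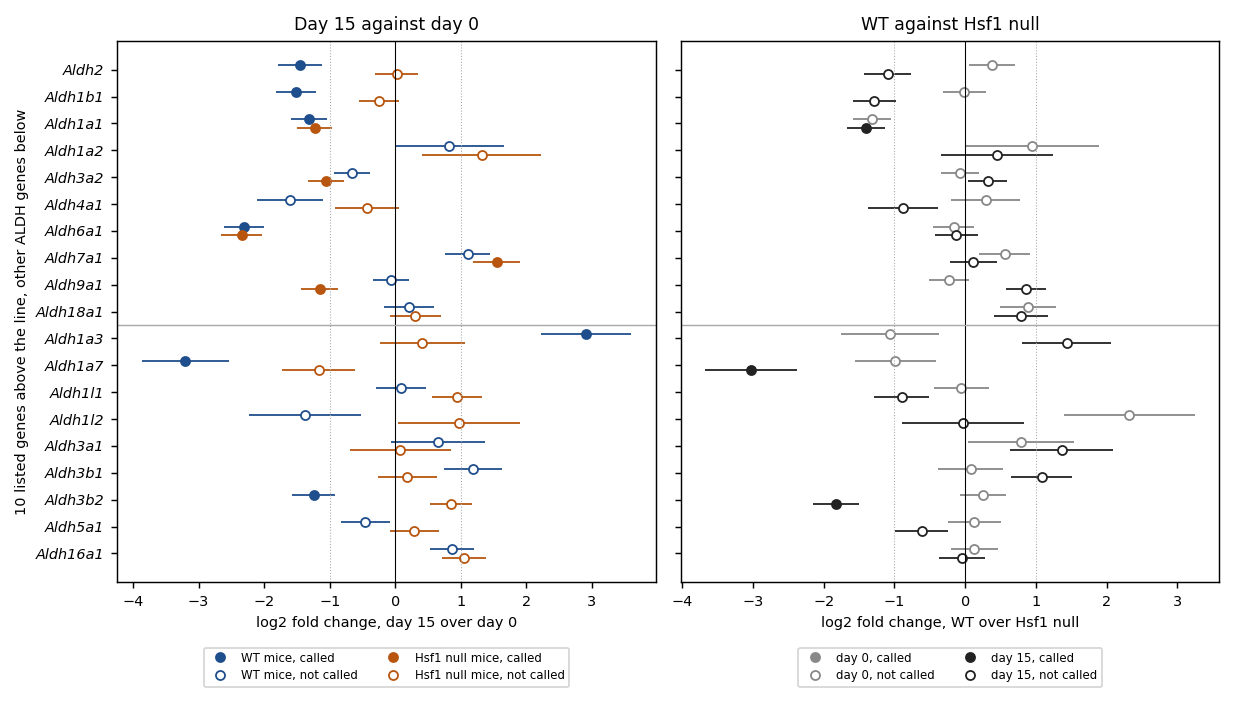
Log2 fold changes with standard errors of the 10 genes (above the grey line) and 9 other aldehyde dehydrogenase genes, on the left from day 0 to day 15 in WT and Hsf1 null mice and on the right between genotypes at each day. Filled points passed the threshold, and Aldh6a1 is filled in both genotypes on the left, at −2.31 and −2.34.

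Of the 11 other genes of the superfamily, 9 were in the count table. In Hsf1 null mice 0 of these 9 were called between days by edgeR, where 6.48% of all genes fell and 5.3% rose. In WT mice 1 of the 9 rose and 2 fell, against 3.47% and 4.27% of all genes. Aldh1a3, the remaining retinal dehydrogenase of the ALDH1A group, rose from 7.15 and 5.56 CPM to 33.9 and 64.1 CPM (log2 fold change 2.91, SE 0.69, adjusted p = 0.0342 by edgeR). In Hsf1 null mice Aldh1a3 was at 11.6 and 16.2 CPM at day 0 and at 5.43 and 30.6 CPM at day 15, so its day 15 mice lay on both sides of the day 0 mice. Of the retinal-oxidizing genes Aldh1a3 thus rose in WT mice where Aldh1a1 fell.

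Aldh1a7, a close relative and neighbour of Aldh1a1, fell in WT mice, from 3.62 and 7.54 CPM to 0.78 and 0.32 CPM (log2 fold change −3.20, adjusted p = 0.0234 by edgeR), the last pair resting on 9 and 3 counts. It was also lower in WT than in Hsf1 null mice at day 15, where the latter had 6.05 and 3.34 CPM (−3.02, adjusted p = 0.0412). Aldh1a7 shares 7.49% of its 50-base stretches with Aldh1a1, so reads could be split between them.

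Aldh3b2, of the ALDH3B group that oxidizes lipid aldehydes, fell in WT mice, from 14.98 and 19.44 CPM to 7.39 and 6.96 CPM (−1.24, adjusted p = 0.047 by edgeR). In Hsf1 null mice it was at 15.9 and 12.2 CPM at day 0 and at 24.3 and 26.7 CPM at day 15 (0.84, adjusted p = 0.102). At day 15 it was lower in WT mice (−1.83, SE 0.33, adjusted p = 0.0242). It shares 23.5% of its 50-base stretches with Aldh3b3, so its counts are uncertain as well.

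The other 6 genes, Aldh1l1, Aldh1l2, Aldh3a1, Aldh3b1, Aldh5a1 and Aldh16a1, passed the threshold in no comparison by edgeR. Aldh1l1, a folate enzyme, was among the more abundant, at 95.2 to 315 CPM. Aldh1l2, its mitochondrial relative, was at 26.5 CPM in mouse 1 of WT day 0 and at 1.59 to 8.13 CPM in the other 7 mice.

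Genes of the pathways around these enzymes were taken from lists by function. Of all tested genes, 1.25% were higher and 1.91% lower in WT than in Hsf1 null mice at day 15. Between days 3.47% rose and 4.27% fell in WT mice, and 5.3% rose and 6.48% fell in Hsf1 null mice. An unadjusted p under 0.05 by edgeR was found for 3332, 3965 and 4686 of the 14371 genes in these comparisons, in that order. Of the retinol oxidation and supply list (16 tested), Rdh16, a retinol dehydrogenase, was lower in WT than in Hsf1 null mice at day 15 (log2 fold change −1.61, adjusted p = 0.0365 by edgeR). Rdh14, of the same enzyme family, fell in Hsf1 null mice between days (−1.43, adjusted p = 0.0365). Each was the 1 called gene of the 16 in its comparison.

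Of the retinoic acid response and breakdown list (14 tested), Tgm2, a transglutaminase that retinoic acid can induce, was the 1 called gene both between genotypes at day 15 and between days in WT mice. It was at 65.9 and 62.3 CPM in WT mice at day 0, at 158 and 345 CPM in WT mice at day 15, and at 34.1 and 71.7 CPM in the treated Hsf1 null mice. The log2 fold change between genotypes was 2.25 (adjusted p = 0.0274 by edgeR) and between days in WT mice 1.97 (adjusted p = 0.0245). No gene of this list was called in Hsf1 null mice, 0 of 14 by edgeR, with 1 at an unadjusted p under 0.05.

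Of the valine and propionate breakdown list (20 tested), 3 genes fell and 0 rose in each genotype. Of all genes, 4.27% fell and 3.47% rose in WT mice, and 6.48% fell and 5.3% rose in Hsf1 null mice. Abat, an aminotransferase of GABA and of valine breakdown products, fell from 370 and 525 CPM to 62.4 and 34.4 CPM in WT mice (−3.20, adjusted p = 0.00834 by edgeR) and from 554 and 597 CPM to 261 and 98.9 CPM in Hsf1 null mice (−1.68, adjusted p = 0.0396). Dbt, a subunit of the branched-chain ketoacid dehydrogenase, fell in both genotypes as well (−1.38 and −1.43). Pccb, a propionyl-CoA carboxylase subunit, fell in WT mice (−1.43, adjusted p = 0.0171) and was lower in WT than in Hsf1 null mice at day 15 (−1.24, adjusted p = 0.0425), and Dld fell in Hsf1 null mice (−1.92, adjusted p = 0.0138). The median of the 20 was −0.78 in WT and −0.26 in Hsf1 null mice, where those of all genes were 0.00 and 0.05.

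Of the proline and glutamate list (11 tested), Oat, which makes pyrroline-5-carboxylate from ornithine, fell in both genotypes. It went from 133 and 163 CPM to 65.8 and 64.3 CPM in WT mice (−1.18, adjusted p = 0.0222 by edgeR) and from 188 and 223 CPM to 50.9 and 38.9 CPM in Hsf1 null mice (−2.19, adjusted p = 0.0123). Glul, glutamine synthetase, was lower in WT than in Hsf1 null mice at day 15 (−1.41, adjusted p = 0.0449).

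Amine oxidases make aldehydes from amines. Of the carnitine and polyamine list (8 tested), 3 of them fell in WT mice and 0 genes rose, against 4.27% and 3.47% of all genes. They were Maob (−2.32, adjusted p = 0.0122 by edgeR), Aoc1 (−1.70, adjusted p = 0.0477) and Maoa (−1.09, adjusted p = 0.0404). Of the 8, 0 were called in Hsf1 null mice by edgeR, with 1 at an unadjusted p under 0.05. Of all genes, 6.48% fell and 5.3% rose there. At day 15 the WT mice had 7.91 and 3.38 CPM of Maob and the Hsf1 null mice 23.3 and 18.6 CPM (−1.88, adjusted p = 0.0369).

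Of the fatty aldehyde and sphingolipid list (12 tested), Acer1, a ceramidase, and Sphk1, a sphingosine kinase, moved apart. In WT mice Acer1 fell (−2.65, adjusted p = 0.0103 by edgeR) and Sphk1 rose (2.69, adjusted p = 0.0182). At day 15 Acer1 was at 10.2 and 9.81 CPM in WT and at 127 and 57.5 CPM in Hsf1 null mice (−3.20, adjusted p = 0.0137), and Sphk1 at 35.5 and 22.1 against 3.41 and 7.22 CPM (2.43, adjusted p = 0.0357). Sphk2 rose in Hsf1 null mice (1.50, adjusted p = 0.022) and Far1, which makes fatty alcohols, fell there (−1.39, adjusted p = 0.0304). A separate list of alcohol dehydrogenases had 6 genes, of which 2 were tested. Of these, Adh5, the formaldehyde-clearing one, fell in Hsf1 null mice (−1.45, adjusted p = 0.0197 by edgeR). At day 15 Adh5 was higher in WT than in Hsf1 null mice (1.35, adjusted p = 0.0398). The lysine and betaine list (5 tested) held 0 called genes in each comparison by edgeR, with 1 at an unadjusted p under 0.05 both between genotypes at day 15 and between days in WT mice. At day 0 and for the interaction, 0 genes of these lists were called by edgeR.

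Levels of cell type markers were summed for each mouse. In bulk tissue, fewer cells of a type and less RNA per cell cannot be told apart. Colonocyte markers (7 of 8 listed in the table, none at 0) summed to 887 and 2175 CPM in WT mice at day 15, to 7293 and 2715 CPM in the treated Hsf1 null mice and at day 0 to 3397 and 6103 CPM for WT and 9050 and 8953 CPM for Hsf1 null. By this sum the WT mice were thus below the Hsf1 null mice at both days without overlap, as for Aldh1a1. Singly, 4 of the 7 markers at day 0 and 5 at day 15 were lower in WT mice without overlap. Groups did not overlap, in either direction, for 37.1% of all genes at day 0 and 54.8% at day 15. Both WT mice at day 15 were the lowest of the 8 for this list as for Aldh2, Aldh1b1 and Aldh1a1. Smooth muscle markers (8 of 8, none at 0) were also lowest there, at 3507 and 2055 CPM against 5047 to 9582 CPM in the other 6 mice. In WT mice between days, 3 of 7 colonocyte markers and 6 of 8 smooth muscle markers fell and 0 of either list rose by edgeR. Of all genes, 4.27% fell and 3.47% rose in WT mice. In Hsf1 null mice 2 of the 7 and 1 of the 8 fell and 0 rose, where 6.48% of all genes fell and 5.3% rose.

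Macrophage markers (8 of 8, none at 0) summed to 906 and 1119 CPM in WT mice at day 15 and to 185 to 440 CPM in the others. Neutrophil markers (6 of 8) reached 109 and 460 CPM there against 3.17 to 20.7 CPM, with Ngp at 0 in all 6 other mice. Epithelial markers summed at day 15 to 16350 and 17470 CPM in WT mice and to 25940 and 22190 CPM in the Hsf1 null ones, and to 10930 to 18230 CPM at day 0. Fibroblast markers had 2617 and 2654 CPM in WT mice of day 15 against 513 and 1621 CPM for Hsf1 null ones. At day 0 they summed to 2730 and 1026 CPM for WT and to 859 and 1219 CPM for Hsf1 null, so mouse 1 of WT day 0 was above both treated WT mice. Adipocyte markers ran from 3.88 to 288 CPM and mesothelial markers from 5.89 to 31.1 CPM over the 8 mice, with Adipoq at 0 in 3 mice and Upk3b at 0 in 2 of them. Endothelial markers (257 and 329 CPM in WT mice at day 15, 74.1 to 163 CPM in the others) and lymphocyte markers (463 and 935 CPM against 23.3 to 246 CPM) were highest in WT mice at day 15, while dendritic cell markers ran from 101 to 1099 CPM and neuron and glia markers from 68.5 to 201 CPM. The part of these cell types in the changes of the 10 genes was not tested.

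**Figure D4:**
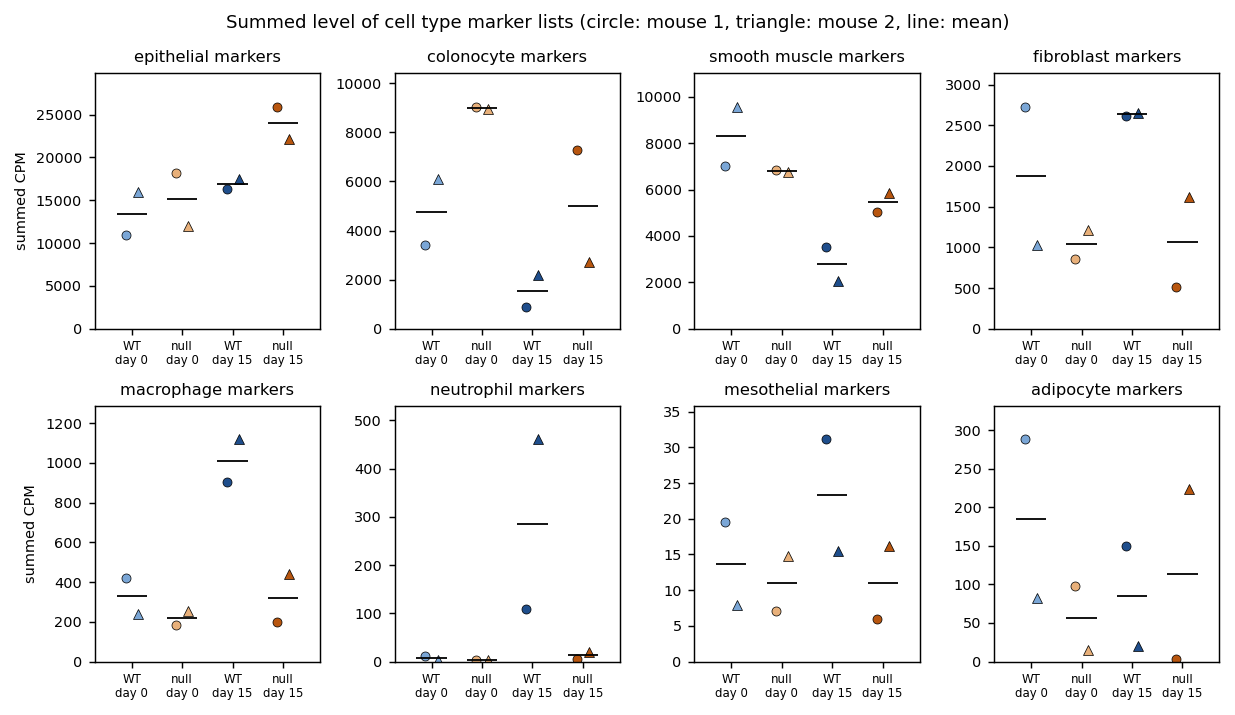
Summed CPM of 8 lists of cell type markers in the 8 mice, with 2 mice (circle and triangle) and their mean (line) for each genotype and day. Each panel has its own axis from 0. Both WT mice at day 15 have the lowest colonocyte sums, 887 and 2175 CPM, and the highest macrophage sums, 906 and 1119 CPM.

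The genes most like 4 of the dehydrogenases over the 8 mice were found among 10002 genes with a mean of at least 10 CPM, by Pearson's r of log2 CPM. They were Vsig10, B3gnt7 and Csrp1 for Aldh2 (r = 0.986, 0.986 and 0.977) and Clps, Ptprn2 and Coq9 for Aldh1b1 (0.989, 0.988 and 0.988). For Aldh1a1 they were Cryzl1, Sult1b1 and Tpmt (0.987, 0.979 and 0.978), and for Aldh1a2 they were Pdk3, Atp1b3 and Srpx2 (0.945, 0.939 and 0.928). The 8 points share the 4 groups, so these values describe a likeness of pattern over groups and mice.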

How the data were processed

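RNA of the distal colon of 8 mice was sequenced from a polyA-selecting kit. The authors aligned reads to mm10 with STAR and deposited raw counts per gene symbol. The counting program, its annotation and its strand setting are not given in the sources used here. The second deposited table holds a signal, the counts divided by the DESeq2 size factor of each sample, and was used only to check the normalization. Its divisors equalled size factors computed from the counts to 4 digits.

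Groups were set by genotype and day, and mice numbered, as the labels give them. Counts of all 8 samples were fitted in 1 model of the 4 groups in edgeR 4.0.16 (R 4.3.3) with TMM, for 14371 genes whose mean normalized count exceeded 5, and p-values were adjusted within each of the comparisons by the Benjamini-Hochberg method. Prior degrees of freedom were 5.97. Precision is limited by 2 mice per group and 2553348 counts in the smallest library, and no single comparison of 2 against 2 mice can reach a small exact p.

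The 10 genes, the lists and the tests were chosen with earlier results of these data known. Named genes are Hsf1, the 10, the other superfamily genes in the table, up to 4 called genes with the largest change per pathway list and comparison, and the 3 genes most like each of 4 dehydrogenases. Positions and exon lengths are from GENCODE M21 (GRCm38), where 99.2% of symbols matched, and promoters from RefSeq. Alternatives were DESeq2 1.42.0, its size factors, other filters, no fold change threshold, a replicate block, thinned libraries, only the samples compared and each sample left out, run for the 10 genes and the totals of called genes. Proteomic data were not used here, and values of some single genes of the pathway lists are not reported here.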

Additional observations from a re-analysis of the deposited data

Results flagged for a closer look

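The change of Aldh3b2 from day 0 to day 15 ran in opposite directions in the 2 genotypes: both WT mice were lower at day 15, and both Hsf1 null mice were higher. The interaction on the log2 scale was −2.09 (unadjusted p = 0.00105, adjusted p = 0.315 by edgeR), which did not pass the threshold. The change in Hsf1 null mice alone did not pass it either (0.84, adjusted p = 0.102 by edgeR). Groups without overlap between days were found for 62.5% of all genes in WT mice and 61.3% in Hsf1 null mice.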

How the results depend on the processing

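Of the log2 fold changes of the 10 genes under all alternatives, 757 kept their direction and side of the threshold, 38 lost their call, 13 gained one and 32 changed sign, none of the last a called value. The number of the 10 called between genotypes at day 15 was 1, and was 3 with DESeq2, 2 with no filter on low counts, 0 with only the samples compared and 0 to 2 with a library left out. In WT mice between days it was 4, and was 6 with DESeq2 and 1 to 4 with a library left out. In Hsf1 null mice it was 5, and was 3 with only the samples compared and 0 to 5 with a library left out. With no fold change threshold or filterByExpr these counts stayed within 1.5 times. Over all genes, 455 were called at day 15, against 1175 with DESeq2, 6 with only the samples compared and 12 to 871 with a library left out. At day 0 the 0 became 17 with DESeq2, 2 with only the samples compared and 0 to 17 with a library left out. Between days the 1112 genes in WT mice became 1738 with DESeq2 and 113 to 1331 with a library left out, and the 1692 in Hsf1 null mice 0 to 1889. For the interaction the 1 became 116 with DESeq2, 2 with no filter on low counts or with the block described next, 3 with thinned libraries and 0 to 50 with a library left out. The cause was not tested.

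Same-numbered mice are different animals, and the labels give them no shared litter, batch or day. Their deviations from the group means had correlations across genes of −0.29 to 0.148, above 0.1 for the 3 pairs without WT day 0 and below it for the 3 pairs with it, so the numbers were not taken to pair the samples. With the replicate block the 10 genes gave 1 call at day 15, as without it, and 5 in WT mice between days, with Aldh4a1 added (−1.71). A block with the WT mice of day 0 exchanged, added after the data were seen, gave 3 calls of the 10 and 1314 genes at day 15, 6 of the 10 and 1856 genes in WT mice between days, and 54 genes for the interaction.

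Values under the threshold that changed sign were the following. In Hsf1 null mice Aldh2 was −0.0004 with the replicate block and −0.0304 with the exchanged block. The interaction was 0.13 for Aldh1a1 and 0.79 for Aldh1a2 with thinned libraries, and 0.0745 for Aldh18a1 with the exchanged block. With a library left out, the range between genotypes at day 15 was −0.32 to 2.26 for Aldh1a2 and −0.21 to 0.52 for Aldh7a1. With a library left out, the range between genotypes at day 0 was −0.40 to 0.29 for Aldh1b1, −0.34 to 0.23 for Aldh3a2, −0.44 to 0.15 for Aldh6a1 and −0.44 to 0.0038 for Aldh9a1. With a library left out, the range between days in WT mice was −0.22 to 0.076 for Aldh9a1 and −0.11 to 0.68 for Aldh18a1. With a library left out, the range between days in Hsf1 null mice was −0.44 to 0.37 for Aldh2, −0.49 to 2.09 for Aldh1a2, −1.09 to 0.0152 for Aldh4a1 and −0.37 to 0.76 for Aldh18a1. With a library left out, the range for the interaction was −0.29 to 0.10 for Aldh1a1, −1.26 to 1.32 for Aldh1a2, −0.28 to 0.32 for Aldh6a1 and −0.55 to 0.57 for Aldh18a1.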
